A study of Mus musculus with 36 samples.

Results

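Mouse epiblast stem cells (EpiSC) that had retinoic acid (RA) for 24 h are compared here with EpiSC that had it for 36 h, with 10 small molecules each given under both schedules. The arrays were chosen by their titles alone: 10 of the 36 arrays of the series had 5 µM RA for 24 h with a compound for 36 h, and 10 had 5 µM RA for 36 h with the same compound for 24 h. EpiSC are pluripotent cells that resemble the epiblast after implantation, and were kept here on Matrigel in fibroblast-conditioned medium with bFGF and Activin. The compounds were the mTOR inhibitor Rapamycin (100 nM), the focal adhesion kinase inhibitor PF573228 (250 nM), the BMP receptor and AMPK inhibitor Dorsomorphin dihydrochloride (2 µM), BAY 11-7082 (25 µM), which blocks NF-kB activation, the adenylyl cyclase activator Forskolin (50 µM), the calcium chelator BAPTA-AM (10 µM), the microtubule drug Docetaxel (500 pM), the PI3 kinase inhibitor Wortmannin (50 nM), the Smoothened agonist Purmorphamine (2 µM) and the FGF receptor inhibitor SU5402 (2 µM). Each compound gave 1 array per schedule, so the design is 10 pairs. Reference values came from 10 arrays of the same compounds without RA, from 1 Mock array with RA for 24 h, 1 Mock array with RA for 36 h and 1 Mock array without RA, and from 1 array with RA for 24 h and conditioned medium (CM).

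The compound was present for 12 h longer where RA was present for 12 h less, and the labels do not say which agent was added first. The RA 24 h arrays lay on other slides than the RA 36 h arrays. Schedule, compound time and slide therefore cannot be told apart in any difference below. The compound arrays without RA had the compound for 24 h and lay on other slides than both schedules. Levels set beside them carry the same limit. The first 5 compounds, Rapamycin to Forskolin, shared a slide within each schedule with the Mock array, and the last 5, BAPTA-AM to SU5402, shared another. No label says whether arrays came from separate cultures, so p-values measure the spread between these arrays. In bulk RNA, fewer cells of a type and less RNA per cell cannot be told apart.

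RA binds nuclear receptors of the RAR family, which pair with RXR proteins on short repeated DNA elements and switch on target genes such as Hox genes of the hindbrain and the RA-degrading enzyme gene Cyp26a1. In pluripotent cells RA ends the expression of pluripotency genes and favours neural fates, and the Hox genes are switched on in the order of their place in the cluster.

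Before normalisation the mean signal of an array was 430 ± 59.2 units with RA for 24 h and 425 ± 46.3 units with RA for 36 h (SD, n = 10 each). Between 38.9% and 43.1% of the probes of an array were detected. The Mock and CM arrays with RA for 24 h lay near the RA 36 h compound arrays for many of the genes that differed most, and the median of the Mock pair is given beside most gene groups below. Whether these arrays hold the samples their labels name was not tested, and each statement on the Mock pair rests on the labels. The Docetaxel arrays of both schedules had 103 and 107 genes at least 1 log2 unit from the mean of the other 9 compounds, against 16 to 69 genes for an array of any other compound. Docetaxel is therefore named below wherever leaving out its pair changed a count by more than 1 gene or ended the statement that no member was higher.

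Of 16235 genes tested, 6357 differed between the schedules (39.2%), with 3328 higher (20.5%) and 3029 lower (18.7%) with RA for 24 h (limma, adjusted p under 0.05). Most changes were small. The difference was at least 1 log2 unit, a factor of 2, for 193 higher and 214 lower genes. All 10 pairs had the same sign for 1566 of the higher and 1526 of the lower genes. The values of the 10 RA 24 h arrays lay wholly above those of the 10 RA 36 h arrays for 681 genes and wholly below for 539, together 7.51% of the genes tested. All log2 differences below are RA 24 h minus RA 36 h, on normalised log2 intensities, and gene group counts are to be read against these shares of all genes. The gene lists were chosen with earlier results of these data known, so a count above these shares is no test of a list.

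The RA target Cyp26a1, an enzyme that breaks RA down, was higher with RA for 24 h. Its level was 10.70 at the lowest, 11.12 at the median and 11.88 at the highest on the RA 24 h arrays, against 9.39, 9.72 and 10.06 on the RA 36 h arrays, so the groups did not overlap. The difference was 1.47 (SE 0.09, adjusted p = 1.34e-07), and a second probe gave 1.56. Without RA the compound arrays averaged 8.21 ± 0.29 (SD, n = 10), so Cyp26a1 was above that level under both schedules. Rarb, the RA receptor gene that RA itself induces, stood at 11.20, 11.33 and 11.49 with RA for 24 h, against 10.92, 11.11 and 11.36 with RA for 36 h, and 7.68 ± 0.18 without RA. Its groups overlapped, and the difference was 0.21 (SE 0.07, adjusted p = 0.0225), a factor of 1.16.

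Both genes carry a direct repeat of RAR half-sites in the promoter, shown because these are the genes of the retinoid groups whose window held one. The window was the 250 bases before and 50 after the RefSeq start of transcription, searched on both strands for 2 half-sites in the same orientation, each being AGGTCA, or AGTTCA, or the variant GGTTCA, or else GGGTCA, with 1, 2 or 5 bases between them. Such a repeat was present in 0.337% of 12761 promoters of genes tested and in 0.588% of all 32851 promoters, where the spacer of 5 bases alone made up 0.0974%. The 150 bases before the start are given below 5′ to 3′ on the strand of the gene (RefSeq, GRCm38.p6), with the repeat in capitals. In both the spacer is 5 bases, and in Cyp26a1 the repeat reads along the other strand.
Rarb, chr14:16575477-16575626, minus strand: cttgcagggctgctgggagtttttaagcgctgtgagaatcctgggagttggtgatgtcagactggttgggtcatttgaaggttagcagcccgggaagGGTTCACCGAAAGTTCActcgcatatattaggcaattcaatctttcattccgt
Cyp26a1, chr19:37697658-37697807, plus strand: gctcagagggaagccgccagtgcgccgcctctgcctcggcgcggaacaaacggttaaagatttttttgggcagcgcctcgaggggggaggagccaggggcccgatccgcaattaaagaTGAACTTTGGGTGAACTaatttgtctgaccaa
The repeat lay 53 to 37 bases before the start in Rarb and 32 to 16 bases before it in Cyp26a1. Among 533 tested genes that were named or listed, 395 had a promoter in the table and 3 held such a repeat, the third being Cxcl10, a chemokine gene that did not pass the test (0.28, adjusted p = 0.2). Of the promoters of genes at least 1 log2 unit apart, 2 of 181 of the higher and 0 of 159 of the lower genes held one.

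All 5 retinoid receptor genes tested were higher with RA for 24 h, with a median difference of 0.25, against 0.02 over all genes, and the Mock pair gave 0.23. The difference was largest for Rarg (0.88, SE 0.07), where 1 of 2 other probes gave 0.17 and did not pass. Its level was 5.90 to 6.55 with RA for 24 h, 4.99 to 5.65 with RA for 36 h and 7.03 on average without RA. The other receptor genes differed by 0.48 (Rxrg), 0.25 (Rara) and 0.19 (Rxrb), and Rxrg was detected on 8 of 10 and 1 of 10 arrays. Without the Docetaxel pair 4 of the 5 passed. Genes that bind, make or break down retinoids were split, with 3 of 10 higher and 3 lower. Stra6, a retinol transporter, was higher by 0.82 (SE 0.15), and Aldh1a2, an RA-synthesising enzyme, by 0.57, where a second probe gave 0.07 and did not pass. Aldh1a2 was detected on 7 of 10 arrays with RA for 24 h and 1 of 10 with RA for 36 h. Crabp1, a cytoplasmic RA-binding protein, was 5.59, 6.503 and 7.22 at the lowest, median and highest with RA for 24 h, against 9.04, 9.36 and 10.59 with RA for 36 h. It was lower by 2.96 (SE 0.13, adjusted p = 4.8e-09) and averaged 5.82 ± 0.64 without RA. Its relative Crabp2 was already at 13.75 at the median with RA for 24 h and 13.99 with RA for 36 h, against 8.64 on average without RA, a difference of -0.17. Aldh1a3, another RA-synthesising enzyme, was lower by 0.46, detected on 1 of 10 and 5 of 10 arrays of those schedules, and Dhrs3 (0.32) and Cyp26b1 (-0.39) did not pass, though a second Dhrs3 probe did (0.47).

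**Figure D1:**
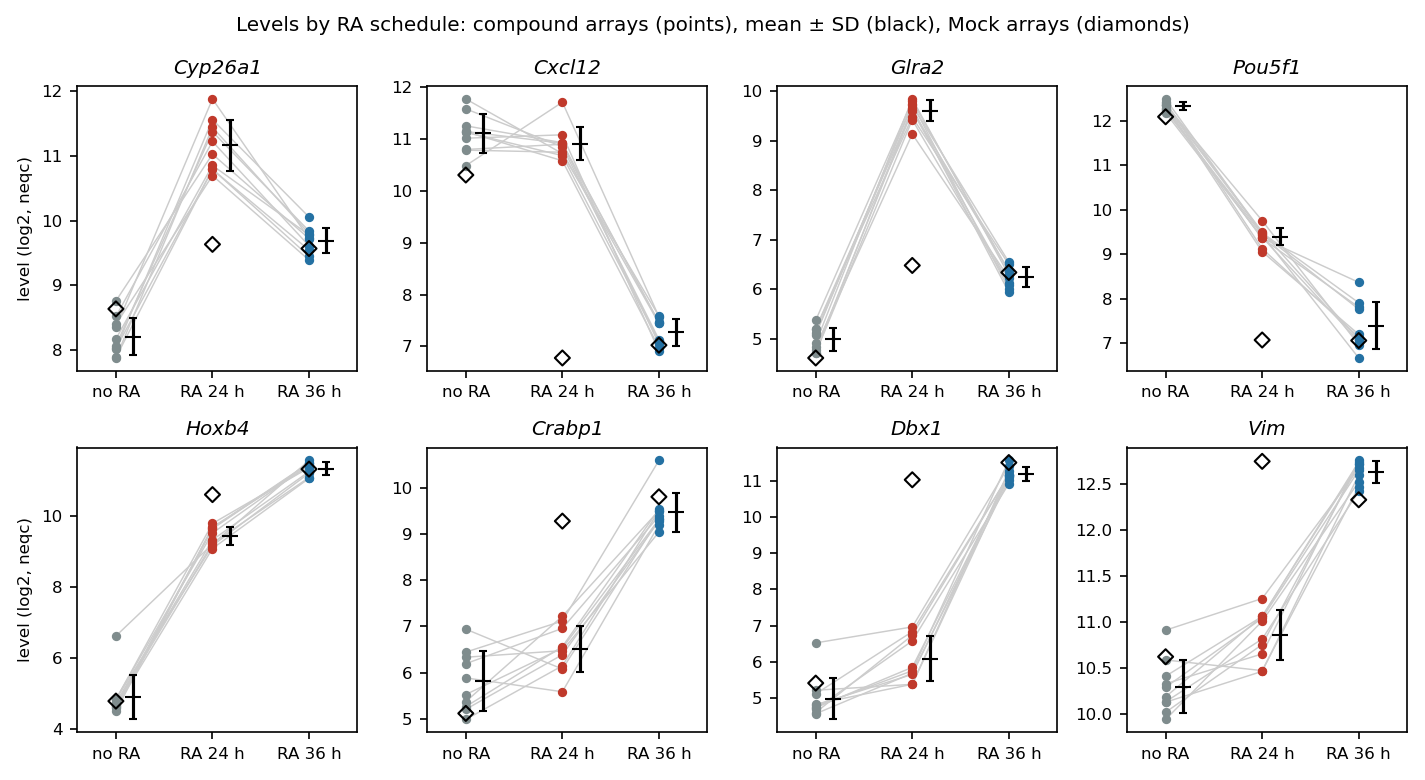
Normalised log2 levels of 8 genes in compound arrays without RA, with RA for 24 h and with RA for 36 h (points, 10 arrays each, grey lines join the same compound, black bars give mean ± SD) and in the Mock arrays (diamonds, 1 each). The Mock array with RA for 24 h lies at the level of the RA 36 h arrays for Cxcl12, Pou5f1 and Dbx1, and between the groups for Hoxb4.

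Hox genes of the hindbrain and neck were lower with RA for 24 h. Of the 13 anterior Hox genes tested, 8 were lower and none was higher, with a median of -0.77, and the median was below 0 in each of the 10 pairs. The Mock pair gave -0.20. Hoxd4 stood at 8.82, 9.43 and 9.83 with RA for 24 h, against 11.56, 11.74 and 12.04 with RA for 36 h, a difference of -2.33 (SE 0.07). Hoxb4 stood at 9.07, 9.41 and 9.78 with RA for 24 h, against 11.05, 11.38 and 11.56 with RA for 36 h, a difference of -1.90 (SE 0.07). Both genes averaged under 5 without RA and were detected on 1 of 10 of those arrays, so the RA 24 h level was already well above it. Hoxb5 (-1.60), Hoxd3 (-1.49), Hoxb3 (-1.27), Hoxa2 (-0.96), Hoxa4 (-0.77) and Hoxb2 (-0.74) were the other members that fell.

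The anterior Hox genes did not all follow. Hoxa5 was at 11.78, 11.94 and 12.17 with RA for 24 h, against 11.65, 11.97 and 12.34 with RA for 36 h and 5.47 ± 0.90 without RA, and the difference of 0.01 (SE 0.09) did not pass. Hoxb1, the gene nearest the start of its cluster, differed by 0.27 and did not pass either. Among 7 listed Hox genes of later position, Hoxb7 was lower by 0.98, while Hoxa7 was higher by 0.77 and Hoxa13 by 0.38, where a second Hoxa13 probe gave -0.27 and did not pass. Outside both Hox lists, Hoxc6 (-1.72) and Hoxb6 (-1.17) were lower, by more than any of these. The Hox partner genes were split 3 to 3 of 8. Meis1 was lower by 0.72 (SE 0.07), and its other 2 probes were lower as well, while Pknox2 was higher by 0.62, where 2 of its 4 other probes did not pass. Meis2 was higher by 0.51, but its probes disagreed, from 0.52 to -0.38. Of 8 caudal and hindbrain regulators 3 were higher and 2 lower, with a median of 0.20, and the Mock pair gave -0.21. Gbx2, a homeobox gene of the anterior hindbrain, was higher by 0.83. The zinc finger gene Tshz1 was lower by 1.10 and the nuclear receptor gene Nr2f2 by 1.25, detected on 2 of 10 arrays with RA for 24 h.

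Listed neural tube regulators were lower with RA for 24 h, and none of the 13 tested from the list was higher. Of these, 8 fell, with a median of -1.09 and a median below 0 in all 10 pairs, from -0.51 with Dorsomorphin dihydrochloride to -1.65 with Wortmannin. The Mock pair gave -0.25. Without the Docetaxel pair 9 fell and 1 was higher. Dbx1, a homeobox gene of progenitors in the middle of the neural tube, showed the largest fall of the genes named by rule. Its level was 5.38, 5.80 and 6.96 with RA for 24 h, against 10.92, 11.16 and 11.56 with RA for 36 h, and 4.99 ± 0.58 without RA. Dbx1 differed by -5.11 (SE 0.18, adjusted p = 6.6e-10), a factor of 34.5, and a second probe gave -3.00. Irx3 and Irx5, Iroquois homeobox genes of the neural tube, were lower by 2.20 and 2.40, with 9.46 to 10.90 and 6.46 to 7.95 with RA for 24 h, and 11.73 to 12.66 and 9.22 to 9.60 with RA for 36 h. Irx3 averaged 9.96 without RA, within the range of the RA 24 h arrays. Irx2 of the same family, outside the list, went the other way and was higher by 1.07.

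Zic1 (-1.90), Pax6 (-1.56), Msx1 (-1.29), Sox21 (-1.09) and Gli3 (-0.48) were the other members that fell. Pax6, a regulator of neural progenitors, was detected on 4 of 10 arrays with RA for 24 h and on 10 of 10 with RA for 36 h. Sox1 (0.13) and Hes5 (-0.03), general neural progenitor markers, did not pass and were detected on at most 7 of 10 arrays of a group. Neuronal genes were mixed, with 7 of 18 lower and 3 higher, and the Mock pair gave -0.03. Nsg2 (-2.39) and the calcium sensor gene Ncald (-2.36) fell. With RA for 24 h, Nsg2 was detected on 3 of 10 arrays and Ncald on 7 of 10, so these differences are partly against background. Elavl3 (0.81) and Ina (0.61), genes of differentiating neurons, were higher, where a second Elavl3 probe gave 0.18 and did not pass. In the neural crest list 5 of 12 fell and 2 were higher: the endothelin receptor gene Ednrb fell by 1.91 (SE 0.06), Ets1 by 1.09 and Sox10 by 0.36, while Tfap2c was higher by 1.18. In the Notch pathway 5 of 13 were higher, among them the ligand gene Dll1 (0.96) and Lfng (0.89), which modifies the receptor, and 2 fell, among them the receptor gene Notch1 (-1.08).

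Among genes of the pluripotent and primed epiblast state more were higher than lower with RA for 24 h, while others, Nanog and Fgf5 among them, did not pass. Pou5f1, a core factor of pluripotency, was 9.06, 9.41 and 9.75 with RA for 24 h, against 6.66, 7.16 and 8.36 with RA for 36 h. Compound arrays that had no RA averaged 12.33 ± 0.09, so the RA 24 h compound arrays lay between. The schedule difference was 2.00 (SE 0.16, adjusted p = 1.12e-06) and a second probe gave 2.00. Mock arrays, 1 each, did not show this step between schedules. Pou5f1 was 7.07 on the RA 24 h Mock array, 7.05 on the RA 36 h one and 12.09 on the one that had no RA. Whether RA time, compound time or slide set the compound arrays apart was not tested. Of 12 shared pluripotency genes 6 were higher and 2 fell, with a median of 0.18, and the Mock pair gave -0.19. Utf1 (1.70), L1td1 (1.66) and the splicing factor gene Esrp1 (1.14) were higher. Nanog was at 5.92 with RA for 24 h and 5.996 with RA for 36 h at the median, against 11.46 on average without RA, and did not pass (-0.11, SE 0.18), though a second probe did (0.20). Sox2, which serves both pluripotent and neural cells, fell by 1.43 (SE 0.13; second probe -0.59), and Lin28b fell by 1.17, where its second probe gave -0.12 and did not pass.

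Of 12 primed epiblast genes 7 were higher and 1 fell, with a median of 0.36 and a median above 0 in all 10 pairs, and the Mock pair gave -0.01. Trh, a hormone precursor gene of the epiblast, was 9.93, 11.89 and 12.31 with RA for 24 h, against 8.65, 9.43 and 10.24 with RA for 36 h and 13.68 ± 0.09 without RA. Pim2 (1.23, detected on 3 of 10 arrays with RA for 36 h), Otx2 (1.003), a homeobox gene of the epiblast and forebrain, and the DNA methyltransferase gene Dnmt3b (0.74) were also higher. Fgf5 did not pass (0.02), with 5.78 and 5.62 at the median against 11.00 on average without RA. Sfrp2, a secreted Wnt inhibitor, fell by 1.28. In the naive pluripotency list 5 of 9 were higher, with a Mock pair median of 0.17, among them Tfcp2l1 (0.66) and Klf5 (0.55), and Esrrb fell by 0.95, where a second probe gave -0.04 and did not pass. Without the Docetaxel pair, 3 of those 9 were higher. Of 10 primitive streak genes 1 was higher, Lhx1 (1.64), and 1 fell. Of 8 Nodal and Activin genes 2 were higher, among them the Nodal effector gene Foxh1 (1.23), and 1 fell, while Cer1 and Tdgf1 of this list were detected on none of the 20 arrays and passed the filter through arrays outside this comparison. Without the Docetaxel pair both lists had 2 members higher and 2 lower.

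Genes of FGF signalling leaned higher with RA for 24 h, with 6 of 10 ligands and receptors higher, 2 lower and a median of 0.34 that was above 0 in all 10 pairs, and the Mock pair gave 0.13. The ligand gene Fgf17 was higher by 1.33 (SE 0.13), with a second probe at 0.32, and the receptor genes Fgfr1 and Fgfr2 by 0.79 and 0.50. The second Fgfr1 probe (0.32) and 2 of 3 other Fgfr2 probes did not pass. The ETS factor genes Etv4 (1.11) and Etv5 (0.96), which FGF signals induce, were higher. Both belong to the list of ERK targets, which was split, 3 higher and 4 lower of 12. Phlda1 (-0.80) and Dusp4 (-0.67) fell, where the 3 other Dusp4 probes did not pass, and Dusp6 (0.18) did not pass, while another Dusp6 probe fell (-0.37).

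Of 15 Wnt genes 6 fell and 2 were higher, with a median of -0.22, against 0.35 in the Mock pair. The ligand gene Wnt8a was 6.80 to 8.08 with RA for 24 h, against 4.74 to 5.44 with RA for 36 h and 9.60 ± 0.25 without RA, a difference of 2.24 (SE 0.12). The Wnt target genes Sp5 and Axin2 fell by 1.59 and 0.51, and Lef1, a mediator of Wnt signals, was higher by 0.55, detected on 7 of 10 arrays with RA for 24 h and 2 of 10 with RA for 36 h. Of 10 BMP genes 4 fell and none was higher, with a median of -0.27 that was below 0 in all 10 pairs, against 0.12 in the Mock pair. Id3, a BMP target, fell by 1.08 and the ligand gene Bmp7 by 1.06.

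Targets of actin signalling were lower with RA for 24 h, and the matrix lists held more genes that fell than genes that were higher, beside others that did not pass. Of 19 targets of SRF and YAP, factors that respond to actin and cell tension, 16 fell and none was higher, with a median of -0.53 and a median below 0 in all 10 pairs, against 0.16 in the Mock pair. Acta2, a smooth muscle actin, was 10.47, 10.69 and 11.29 with RA for 24 h, against 11.02, 12.08 and 12.43 with RA for 36 h and 10.23 ± 0.34 without RA. Its groups overlapped through the Docetaxel array of the RA 36 h group, at 11.02, and the difference was -1.24 (SE 0.14). Anxa1 (-2.33), Ankrd1 (-1.37) and Tagln (-0.81) were further members that fell. The same 16 of 19 count held without the Docetaxel pair.

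Of 15 basement membrane genes 8 fell and 2 were higher, with a median of -0.24, against 0.19 in the Mock pair. The laminin gene Lama1 fell by 1.09 (SE 0.08). Its mean without RA was 5.63, and its medians were 9.59 with RA for 24 h and 10.68 with RA for 36 h. The collagen IV genes Col4a2 and Col4a1 fell by 0.88 and 0.75. Of 10 fibroblast markers 5 fell and 1 was higher, with a median of -0.56, against 0.15 in the Mock pair. Col1a2 was 5.42 to 6.48 with RA for 24 h, against 7.72 to 8.63 with RA for 36 h, a difference of -2.37 (SE 0.11), and Col1a1 fell by 1.04. Summed over the 10 fibroblast markers, on the linear scale, the level was 2086 to 2491 on the RA 24 h arrays and 3056 to 3981 on the RA 36 h arrays, and Col1a1, Col1a2 and Dcn were detected on all 20. Whether other cells took part in these differences was not tested.

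Of 11 mesenchymal genes 5 fell and 1 was higher, with a median of -0.20, and the Mock pair gave -0.07. Vim, the intermediate filament vimentin, was 10.47, 10.91 and 11.26 with RA for 24 h, against 12.42, 12.66 and 12.76 with RA for 36 h and 10.30 ± 0.29 without RA, a difference of -1.77 (SE 0.08). Cdh2 (-1.44), N-cadherin, fell at the probe used, where it was detected on 5 of 10 arrays with RA for 24 h, but a second Cdh2 probe gave 0.01, and Zeb1 (-1.01), a repressor of epithelial genes, fell. Of 13 epithelial genes 7 were higher and 2 fell, with a median of 0.28, and the Mock pair gave 0.23. Cldn3 (1.63), a tight junction gene, and Grhl2 (0.79), an epithelial regulator, were higher, and so was Cdh1, E-cadherin, by 0.28, where a second probe gave -0.08. Of 15 focal adhesion and integrin genes 7 fell and 2 were higher. Itgb5 was higher by 0.84, and Itgb1 fell by 0.61 with a second probe at -0.06.

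Of 12 p53 targets 8 fell and 1 was higher, with a median of -0.31 below 0 in all 10 pairs, against 0.14 in the Mock pair. The cell cycle inhibitor gene Cdkn1a was 9.10 to 10.47 with RA for 24 h, against 10.48 to 10.91 with RA for 36 h, a difference of -0.89 (SE 0.12). Sesn2 fell by 0.72, with a second probe at -0.13, and Gadd45a was higher by 0.42. Of 18 genes of glycolysis and hypoxia 9 were higher and 1, Pgk1 (-0.25), fell, with a median of 0.36, against -0.21 in the Mock pair. The lactate exporter gene Slc16a3 was higher by 1.05, detected on 3 of 10 arrays with RA for 36 h, with a second probe at 0.15, and the glucose transporter gene Slc2a3 by 0.81. Pkm, pyruvate kinase, was higher by 0.56, with a second probe at -0.17.

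Among Polycomb genes 3 of 14 were higher and 4 fell. Phc1 (0.94) and Cbx7 (0.83), subunits of Polycomb repressive complex 1, were higher, where 1 of 2 other Phc1 probes did not pass (0.28), and Eed (-0.76), a subunit of complex 2, fell, though a second Eed probe gave 0.44 and passed. Of 13 imprinted genes 5 fell and 3 were higher: Igf2 (-0.77) and Peg3 (-0.75), paternally expressed genes, fell and Phlda2 (1.01), a maternally expressed one, was higher. Genes of the ATF4 response were split, 7 higher and 3 lower of 17, with Trib3 (0.84) and Chac1 (0.83) higher and the amino acid transporter gene Slc3a2 lower by 1.05. The zinc-binding metallothionein gene Mt1 was higher by 0.63.

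**Figure D2:**
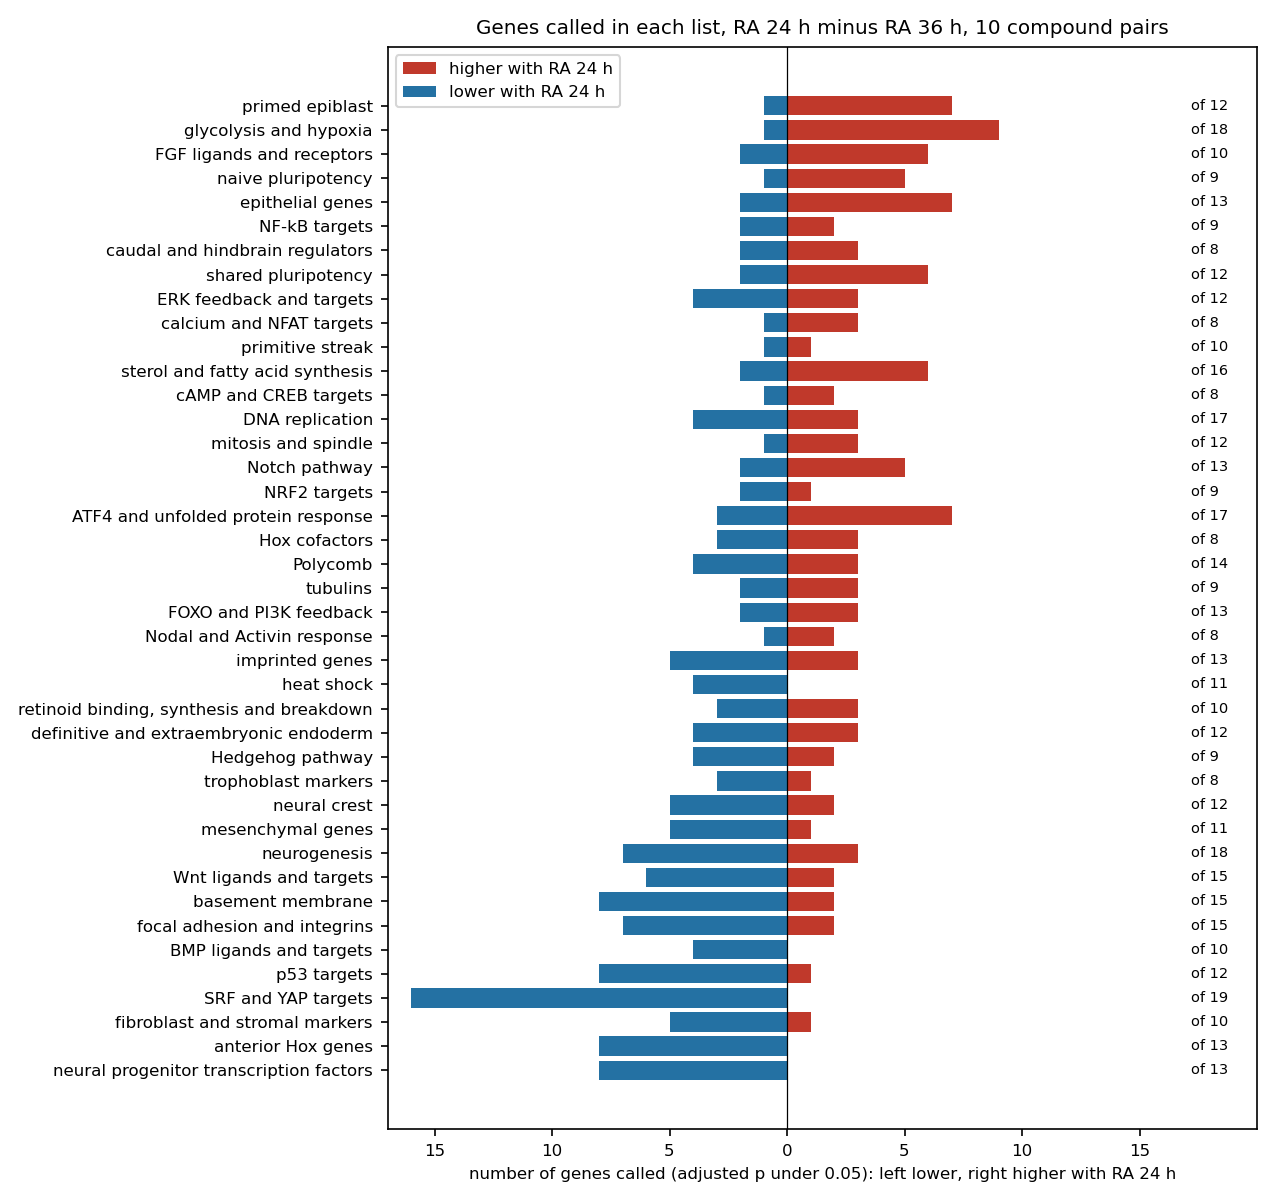
Number of genes called in each list with at least 8 genes tested, lower with RA for 24 h to the left in blue and higher to the right in red, ordered by median difference, with the number tested at the right. SRF and YAP targets (16 of 19 lower), anterior Hox genes (8 of 13) and neural progenitor factors (8 of 13) had no member higher. The same held for BMP genes (4 of 10 lower) and heat shock genes (4 of 11 lower). Without the Docetaxel pair 1 neural progenitor factor was higher.

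The largest differences by the naming rule, which takes genes with 1 symbol that is no clone name and the same sign in all 10 pairs, were spread over many functions. Cxcl12, a chemokine gene, was 10.58, 10.87 and 11.71 with RA for 24 h, against 6.91, 7.29 and 7.59 with RA for 36 h, a difference of 3.64 (SE 0.10, adjusted p = 2.34e-10) or 12.5-fold. It averaged 11.11 ± 0.38 without RA, so the RA 24 h compound arrays lay at the level without RA. Its other 2 probes gave 1.42 and 1.66. Glra2, a glycine receptor subunit gene, was 9.13, 9.64 and 9.84 with RA for 24 h, against 5.94, 6.26 and 6.55 with RA for 36 h and 4.99 ± 0.23 without RA, a difference of 3.36 (SE 0.09). Glra2 was thus above both other conditions, in a different order from Cxcl12.

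Tent5a (2.75), Upp1, uridine phosphorylase (2.73), Eras, a Ras-like gene of embryonic stem cells (2.42), B3gnt7 (2.40), Mup6 (2.24), Tmem229b (2.23), Rhbdl3 (2.20) and the neurotrophin receptor gene Ntrk2 (2.14) completed the 12 largest rises under that rule with Wnt8a and Trh. A second Ntrk2 probe gave 0.26 and did not pass. The largest falls under that rule after Dbx1 were those of Megf10 (-3.42), Crabp1, Arg1, arginase (-2.50), Cyp1b1 (-2.44), Vit (-2.42), Irx5, Nsg2, Col1a2, Ncald, Anxa1 and Hoxd4. Megf10 was 4.91 to 5.93 with RA for 24 h, where it was detected on 7 of 10 arrays, against 8.65 to 9.11 with RA for 36 h.

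The genes whose smallest difference over the 10 pairs was largest were added by rule. On the higher side these were Cyp2b23 (2.01), the transcription factor gene Stat4 (2.00), the cytokine gene Il33 (1.78), Tmem125 (1.63), Dok2 (1.79), Rab25 (1.99), Slc27a2 (1.98) and Gdf3 (1.97), a ligand gene of the TGF-beta family. Cyp2b23 and Stat4 were detected on 2 of 10 arrays with RA for 36 h, so their differences are partly against background. Tmem125 differed by 1.46 at least, with Wortmannin, and by 1.88 at most, with Docetaxel. On the lower side these were Tnc, tenascin C (-2.23), Irx3, Emp1 (-1.90), Ednrb, Hoxb4, Slc24a3 (-1.79), Fez1 (-1.80) and Vim. For Tnc, 1 of 3 other probes did not pass (0.00). Emp1 was among the most even, from -2.10 with Rapamycin to -1.67 with Docetaxel.

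Set beside the arrays without RA, the 407 genes at least 1 log2 unit apart took different orders. Of the 193 higher genes, 105 had an RA 24 h mean between the means without RA and with RA for 36 h, as Pou5f1 did, and 88 had it above both, as Glra2 and Cyp26a1 did. Of the 214 lower genes, 136 lay between, as Hoxb4 did, and 78 lay below both, as Irx3 did. These places are descriptions of means, and a mean a little outside the other means counts as above or below. Slides differed between the conditions as well, and the compound time without RA was that of the RA 36 h arrays.

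The direction of the large differences was the same in nearly every compound pair. When each pair was left out of the fit and its own difference was then read for the genes at least 1 log2 unit apart in the other 9 pairs, between 98.0% (Dorsomorphin dihydrochloride) and 99.8% (BAPTA-AM) of 386 to 445 genes had the same sign. The median ratio of the left-out pair to the fit of the others was 0.79 with Dorsomorphin dihydrochloride, 0.85 with BAY 11-7082, 0.87 with PF573228 and 0.91 with Rapamycin. It was 0.97 with Docetaxel, 0.999 with BAPTA-AM, 1.03 with Forskolin, 1.10 with Wortmannin, 1.10 with SU5402 and 1.11 with Purmorphamine. The 4 lowest ratios were those of compounds on the first slide pair. Each left-out pair shared its slides, RA time and compound time with pairs that stayed in the fit. The agreement therefore cannot tell schedule from slide, and the pairs are no independent repeats of the schedule.

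**Figure D3:**
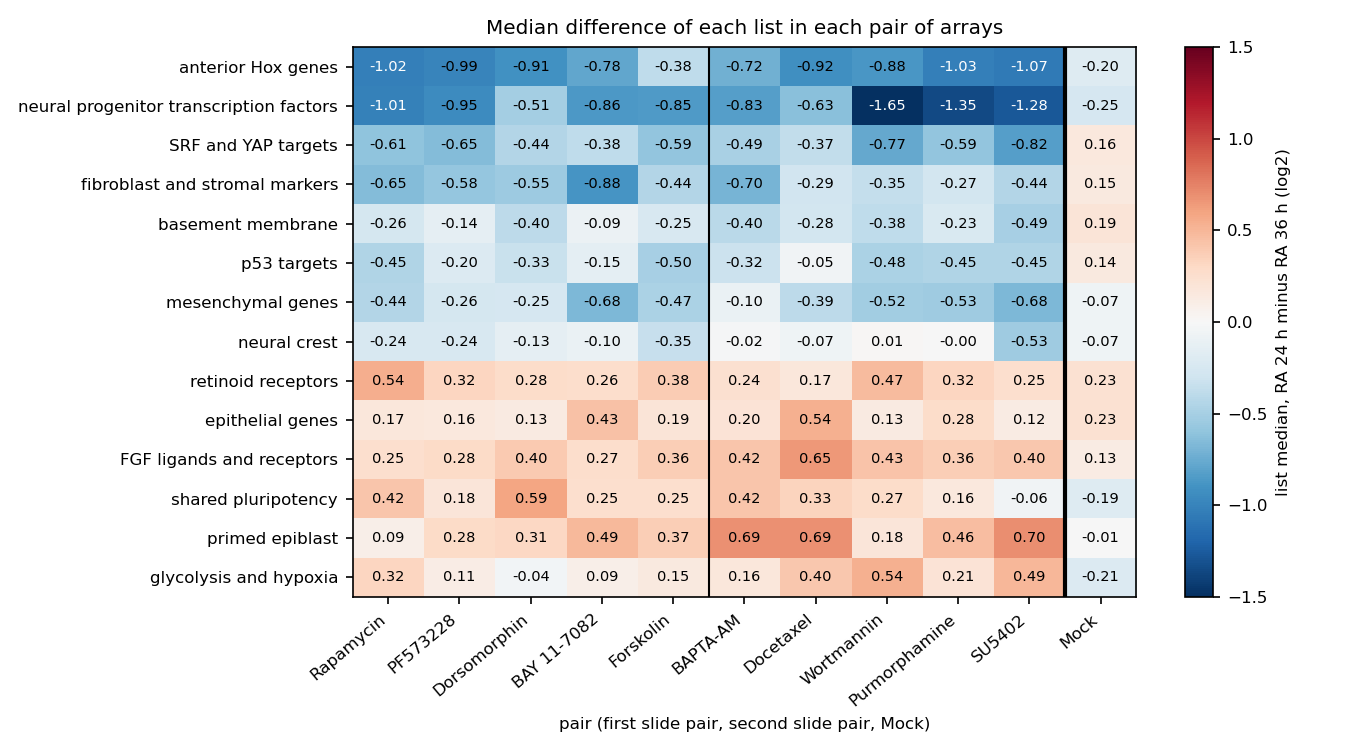
Median log2 difference, RA 24 h minus RA 36 h, of 14 gene lists (rows) in each compound pair and in the Mock pair (columns, 1 array per schedule in each pair). The anterior Hox row runs from -1.07 with SU5402 to -0.38 with Forskolin and stands at -0.20 in the Mock pair.

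Some genes differed strongly between compounds. The 10 detected genes with the largest SD of the pair differences were ND5, Nkx2-3, Sirt4, Mgarp, Pdk1, Palm3, Ppp1r16b, Map2, Crebbp and Rc3h2, and each value here is 1 array against 1 array. Mgarp, a mitochondrial gene that hypoxia induces, was higher in all pairs, by 0.98 with Dorsomorphin dihydrochloride, 3.44 with Wortmannin and 3.56 with SU5402. Pdk1, a kinase gene that hypoxia also induces, differed by -1.01 with BAY 11-7082, 1.99 with Wortmannin and 1.47 with SU5402. Nkx2-3, a homeobox gene, differed by -3.06 with Wortmannin, -2.07 with Purmorphamine, -1.30 with SU5402 and 0.43 with BAPTA-AM. Map2, a neuronal microtubule protein gene, differed by 0.09 with Rapamycin and 2.64 with SU5402, but its second probe gave 0.03 on average and did not pass. Crebbp (-2.14 with BAY 11-7082, 0.60 with Rapamycin) and mitochondrial ND5 (-1.36 with SU5402, 1.61 with Forskolin) completed the range, and the remaining members of this group split by slide pair.

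The 2 slide pairs gave the same direction for nearly all called genes. All 407 genes at least 1 log2 unit apart, and 6337 of 6357 called genes, had the same sign in the mean of the first 5 and of the last 5 compounds. The first 5 compounds alone gave 3390 calls and the last 5 alone gave 5404. The calls shared with the same sign were 2136, which is 63.01% of the first list and 39.5% of the second. A test of the difference between slide pairs called 397 genes (2.45%), 120 of them higher and 277 lower in the second pair, and 297 had opposite signs in the 2 pairs. Sirt4, a mitochondrial sirtuin gene, differed by 0.21 in the first pair and -1.40 in the second, and Palm3 by 0.21 and -1.28. Ppp1r16b (0.52 and -0.89) and Rc3h2 (1.05 and -0.16) behaved alike. The largest interactions towards the second pair were those of Tpt1 (1.71), Rasef (1.38), Ager (1.33), Hadha (1.24) and Gjd3 (1.24), and the largest the other way those of Fut9 (-1.76), Sirt4 (-1.61), Tns1 (-1.57), Palm3 (-1.48) and Slc23a4 (-1.41). Several of these lay near the detection limit, with Gjd3 detected on 1 of 10 RA 24 h arrays and Slc23a4 on 4. Otx2 differed by 0.40 in the first pair and 1.60 in the second, and Fgf17 by 1.73 and 0.93. Compound and slide cannot be told apart in this test, since each slide pair held its own 5 compounds.

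**Figure D4:**
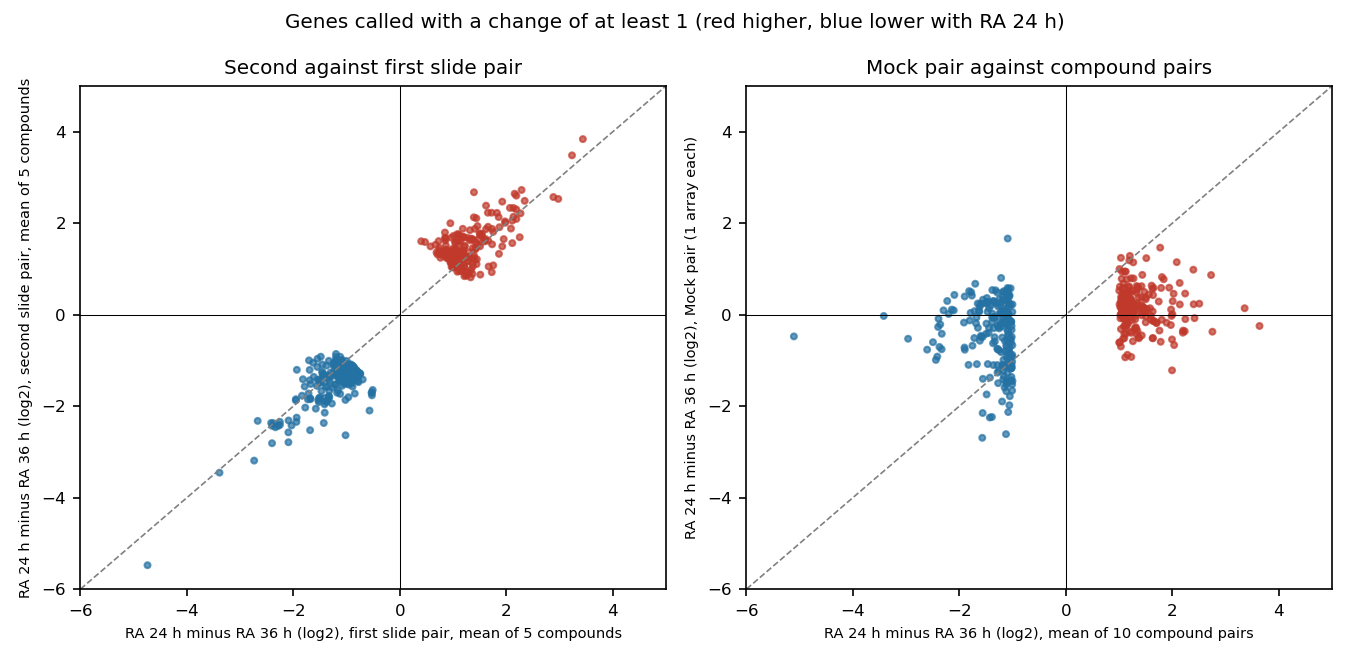
Log2 differences, RA 24 h minus RA 36 h, of the 407 genes called at least 1 log2 unit apart (red higher, blue lower, dashed line of equality). Left, the mean of the second 5 compounds against the first 5, where all 407 have the same sign. The genes were called on these same compound pairs, so the agreement at the left was largely built in. Right, the Mock pair against the mean of the compounds, where 65.1% have the same sign.

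The Mock pair did not show the difference of the compound pairs. Over the 407 genes it had the same sign for 65.1%, with a median ratio to the compounds of 0.15. The 193 higher genes had a median difference of 0.14 in the Mock pair, against 1.26 in the compound pairs, and the 214 lower genes -0.29 against -1.20. The gap lay on the RA 24 h side: the Mock array with RA for 24 h was at a median of 1.13 below the compound arrays for the higher genes and 1.05 above them for the lower genes. The Mock array with RA for 36 h was 0.01 below and 0.06 above its compound arrays. The CM array with RA for 24 h was 1.07 below and 0.53 above the compound arrays of its schedule. The Mock arrays shared slides with the first 5 compounds of their schedules.

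Single genes showed this plainly. Dbx1 was 11.03 on the Mock and 11.98 on the CM array with RA for 24 h, against 11.50 on the Mock array with RA for 36 h, while the compound arrays lay between 5.38 and 6.96 with RA for 24 h. Cxcl12 was 6.78 on the Mock and 6.22 on the CM array with RA for 24 h, against 7.03 on the Mock array with RA for 36 h while no compound array of the RA 24 h group was below 10.58. Cyp26a1 was 9.63 on the Mock and 10.32 on the CM array with RA for 24 h, against 9.57 on the Mock array with RA for 36 h. Crabp1 was 9.28 on the Mock and 9.37 on the CM array with RA for 24 h, against 9.81 on the Mock array with RA for 36 h.

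A test of the compound pairs against the Mock pair called 140 genes (0.862%), 63 with a difference above that of Mock and 77 below, and 1848 at an unadjusted p under 0.05. With 1 Mock array per schedule, this test takes the spread of the compound arrays for that of Mock. The largest positive gaps were those of Cxcl12 (3.89, SE 0.34), Glra2 (3.22), Stat4 (3.21), Tent5a (3.13) and Tmem229b (2.60). The largest negative gaps were those of Dbx1 (-4.63), Megf10 (-3.39), Tnc (-2.53), Prdm13 (-2.53), a neural regulator gene that fell by 2.09 in the compound pairs and was detected on 2 of 10 of their RA 24 h arrays, and Crabp1 (-2.44).

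Some genes moved in the Mock pair as in the compound pairs. Of the 407 genes, 57 had a Mock difference of the same sign and at least 1 log2 unit, 7 higher and 50 lower. The same held for 303 of all 6357 called genes. Of the 16235 genes tested, 580 had a Mock difference of at least 1 log2 unit in either direction. Sox2 was 6.58 on the Mock array with RA for 24 h and 8.83 on that with RA for 36 h, a difference of -2.25 beside -1.43 in the compound pairs. Pax6 gave -2.15 beside -1.56, and Lin28b gave -1.22 beside -1.17. For these genes the RA 24 h arrays of Mock and of compounds lay on the same side of their RA 36 h arrays.

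The Docetaxel arrays kept the difference between schedules from a shifted level. Ankrd1, a YAP target, was 7.20 with RA for 24 h and 8.18 with RA for 36 h under Docetaxel, where the other compounds lay at 7.79 or above and at 9.29 or above. Ncald was 7.23 and 9.72 under Docetaxel, where the other compounds did not pass 5.96 and 8.11. Irx3 was 10.90 and 12.66, against at most 9.94 and 12.24 with the other compounds, and Ednrb was 11.52 and 13.10, against at most 10.84 and 12.70. The schedule differences with Docetaxel were -0.98 for Ankrd1, -2.49 for Ncald, -1.76 for Irx3 and -1.58 for Ednrb. The SRF and YAP targets as a list lay 0.20 and 0.32 below the other compounds at the median with RA for 24 h and 36 h. With RA for 24 h this was not particular to Docetaxel, as the Wortmannin array gave -0.24 by the same measure. With RA for 36 h the Wortmannin array gave -0.04.

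**Figure D5:**
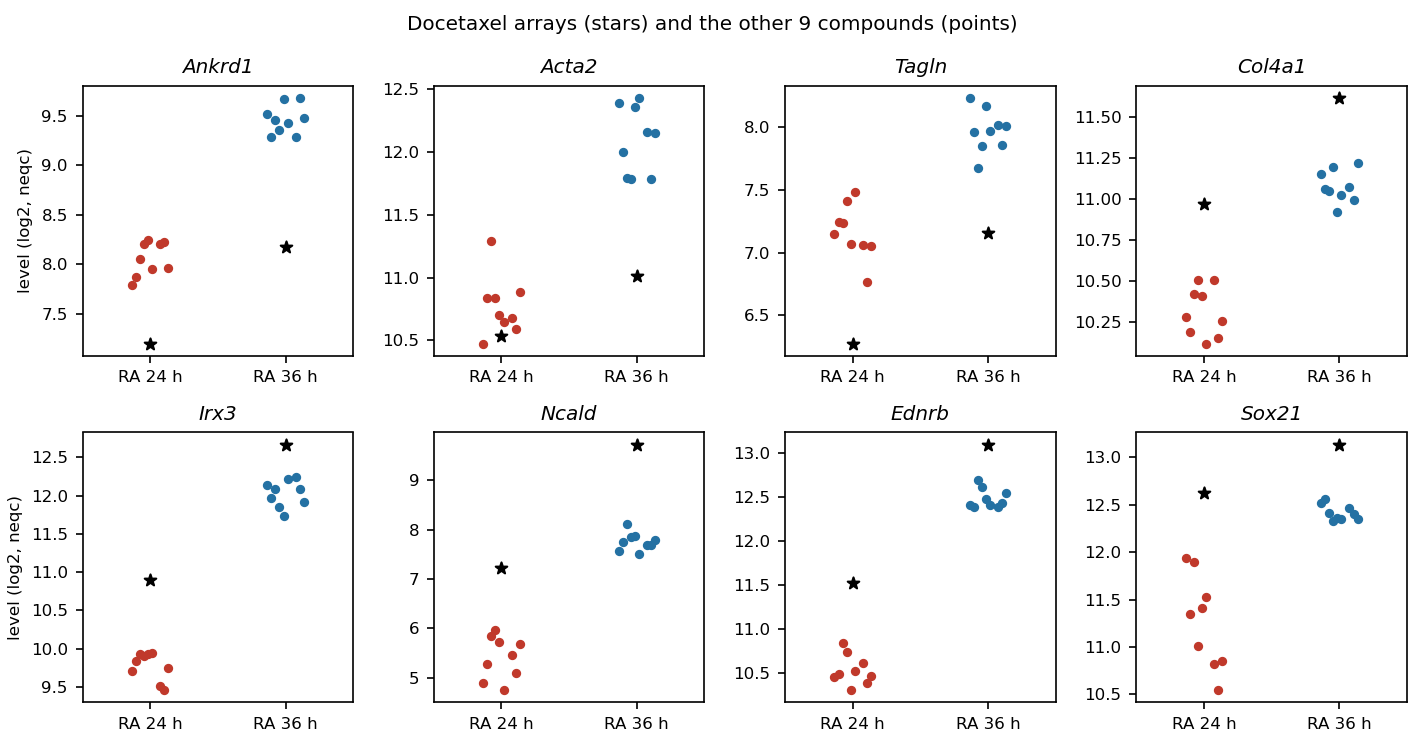
Normalised log2 levels of 8 genes under the RA schedules, with the Docetaxel array as a star and the other 9 compounds as points. The Docetaxel arrays lie below the others for Ankrd1 and Tagln and above them for Col4a1, Irx3, Ncald, Ednrb and Sox21 under both schedules, and for Acta2 they lie lowest with RA for 36 h only.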

How the data were processed

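RNA of 36 samples was measured on Illumina mouse arrays. The deposited table gives an intensity and a detection p-value per probe, and a second table gives log2 values that the authors normalised (method not given in the sources used here). Intensities were background-corrected from the detection p-values and quantile-normalised with neqc (limma 3.58.1, R 4.3.3, offset 16). A probe was used if 3 or more of the arrays had a detection p under 0.05 for it (23999 of 45281 probes), and the probe of highest mean stood for each gene. The schedules were compared with limma, with compound as block, on 20 arrays, with Benjamini-Hochberg adjustment over 16235 genes. The same tool tested slide pairs and compounds against Mock. The members and the gene lists were chosen with earlier results of these data known. Genes with 1 symbol, clone names left out, were named by rule: the 12 largest changes each way with 1 sign in all pairs, the 8 most uniform each way, the 10 most variable between pairs, 5 each way for slide pair and for Mock, and list members with the largest changes or that define a list. List names were matched by current symbol, or by alias where no current gene has that name. Gene symbols came from the platform annotation, where 18 probes had several and 10378 none. On simulated data 77% of genes changed by 0.5 log2 units, and 99.5% of those changed by 1, were recovered. There 200 of 16235 genes were changed, with independent noise and no slide effect. These rates do not cover a shift shared by a slide, nor the larger share of genes called in the data. The number of arrays limits the precision.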

Additional observations from a re-analysis of the deposited data

Results flagged for a closer look

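For 164 named genes, the highest or lowest of the 10 arrays of each schedule was set against its nearest neighbour, and Dixon's 95% critical value of the gap over the range decided whether it stood apart. This held in 39 of 328 groups (11.9%), where chance gives about 1 in 20 for groups chosen without regard to spread. Some genes here were named for a large spread between pairs, and all groups share the same arrays. The share is therefore no measure of how common such arrays were. The Docetaxel array was the one apart in 24 of the 39. With RA for 24 h, the normalised log2 level with Docetaxel and that of the nearest array stood apart for Cxcl12 (11.71, nearest 11.08), Trh (9.93, nearest 11.41), Ncald (7.23, nearest 5.96), Stat4 (7.98, nearest 7.11), Il33 (9.51, nearest 9.97), Irx3 (10.90, nearest 9.94), Emp1 (9.72, nearest 9.19), Ednrb (11.52, nearest 10.84), Fez1 (8.98, nearest 8.20), Tfap2c (10.01, nearest 9.26), Col4a1 (10.97, nearest 10.51), Col4a2 (10.30, nearest 9.71), Ankrd1 (7.20, nearest 7.79) and Phc1 (12.72, nearest 12.11). With RA for 36 h this held for Crabp1 (10.59, nearest 9.54), Arg1 (9.79, nearest 10.22), Ncald (9.72, nearest 8.11), Ednrb (13.10, nearest 12.70), Sox21 (13.13, nearest 12.56), Id3 (8.90, nearest 8.47), Col4a1 (11.61, nearest 11.22), Acta2 (11.02, nearest 11.78), Ankrd1 (8.18, nearest 9.29) and Tagln (7.16, nearest 7.67).

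With Dorsomorphin dihydrochloride and RA for 24 h, Dhrs3 (5.37, nearest 6.07) and Acta2 (11.29, nearest 10.89) stood apart. With Dorsomorphin dihydrochloride and RA for 36 h, Vit (8.95, nearest 8.53) stood apart. With Purmorphamine and RA for 24 h, Hoxd4 (8.82, nearest 9.30) stood apart. With Purmorphamine and RA for 36 h, Crebbp (6.64, nearest 7.15) and Ina (4.84, nearest 5.83) stood apart. With BAPTA-AM and RA for 24 h, Rab25 (9.07, nearest 9.39) stood apart. With Rapamycin and RA for 24 h, Ppp1r16b (7.04, nearest 6.36) and Map2 (7.12, nearest 7.55) stood apart. With BAY 11-7082 and RA for 24 h, Aldh1a3 (5.33, nearest 4.91) stood apart. With Wortmannin and RA for 24 h, Msx1 (5.01, nearest 5.57) and Dusp4 (9.62, nearest 9.95) stood apart. With Forskolin and RA for 36 h, Elavl3 (5.71, nearest 5.49), Dll1 (6.41, nearest 7.20) and Dusp6 (12.91, nearest 12.63) stood apart.

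The schedule difference in the compound pairs differed from that of the Mock pair for 44 of 164 named genes, by limma's interaction test with adjusted p under 0.05 and with 1 Mock array per schedule. Genes were named in part by this same test, 5 each way, and by the size of the compound difference. The count is therefore no measure of how common such gaps were, and over all genes tested the share was 0.862%. The compound difference minus the Mock difference was positive for Cxcl12 (3.89), Glra2 (3.22), Tent5a (3.13), Upp1 (1.86), Eras (2.49), Mup6 (2.34), Tmem229b (2.60), Rhbdl3 (2.59), Ntrk2 (1.44), Cyp2b23 (1.71), Stat4 (3.21), Il33 (2.37), Tmem125 (1.56), Rab25 (2.01), Gdf3 (2.20), L1td1 (1.79), Pim2 (2.15), Foxh1 (1.62) and Itgb5 (1.33). It was negative for Dbx1 (-4.63), Megf10 (-3.39), Crabp1 (-2.44), Arg1 (-1.90), Vit (-1.498), Irx5 (-2.13), Nsg2 (-2.30), Ncald (-2.15), Hoxd4 (-1.91), Tnc (-2.53), Irx3 (-2.22), Emp1 (-2.30), Ednrb (-1.74), Hoxb4 (-1.19), Slc24a3 (-1.83), Fez1 (-1.68), Vim (-2.18), Prdm13 (-2.53), Hoxd3 (-1.30), Hoxa2 (-1.26), Ets1 (-1.68), Lama1 (-1.54), Col1a1 (-1.61), Zeb1 (-1.07) and Ankrd1 (-1.66).

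The schedule difference differed between the slide pairs for 14 of 164 named genes by the same kind of test. The 5 largest called genes each way had been named by this very test, and over all genes tested the share was 2.45%. The second pair minus the first was positive for Tpt1 (1.71), Rasef (1.38), Ager (1.33), Hadha (1.24), Gjd3 (1.24) and Otx2 (1.20). It was negative for Sirt4 (-1.61), Palm3 (-1.48), Ppp1r16b (-1.41), Rc3h2 (-1.22), Fut9 (-1.76), Tns1 (-1.57), Slc23a4 (-1.41) and Fgf17 (-0.80). The slide pairs held different compounds, so slide and compound cannot be told apart.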

How the results depend on the processing

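The main count of 6357 genes lay within 1.5 times itself under each other setting run except the first slide pair alone, and without any 1 pair (5725 to 6244 genes). It was 6398 with the authors' deposited log2 values, 5509 with a median shift, 4973 with slide as a random block and 3390 with that pair alone, where the second pair of slides, with as many arrays, gave 5404, and the cause was not tested. Without the replicate block by compound it was 6547, and the deviations of same-compound arrays from their schedule means correlated by -0.16 to 0.17 across genes, with 2 of 10 best matched to their own compound. List counts without the Docetaxel pair were added after seeing the data. With the first slide pair alone the sign turned for Ppp1r16b (0.52), Rasef (-0.52), Fut9 (0.44), Tns1 (0.024) and Slc23a4 (0.64). Of 3600 values of named genes under these settings, 3463 kept direction and side of the threshold, 91 lost the call, 41 gained it and 5 reversed. The slide pair count of 397 became 262 among genes detected on at least 10 of 20 arrays and 138 to 467 with 1 pair left out, the lowest without Dorsomorphin dihydrochloride, and the cause was not tested. The Mock count of 140 became 53 with the first slide pair alone and 116 to 154 with 1 pair left out. In simulated data the Mock test recovered 4% of genes changed by 1 log2 unit and 90% of those changed by 2, so its count says little of smaller gaps.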

Other observations

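For each compound 1 gene list close to its target was read in its own pair and in the other 9 pairs. The median difference, RA 24 h minus RA 36 h, in the compound's own pair lay within the range of the other 9 pairs for all 10 compounds. Sterol and fatty acid genes gave 0.20 with Rapamycin, against -0.00 to 0.21 in the other pairs, and BMP genes -0.24 with Dorsomorphin dihydrochloride, against -0.57 to -0.13. NF-kB targets gave -0.04 with BAY 11-7082, against -0.19 to 0.42, and Hedgehog genes -0.08 with Purmorphamine, against -0.26 to 0.26. ERK targets gave 0.02 with SU5402, against -0.15 to 0.32. The compound time differed between the arrays of a pair, so these values do not measure the effect of a compound against no compound.

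Markers of other lineages were mixed. Of 12 endoderm markers 3 rose and 4 fell, and of 8 trophoblast markers 1 was higher and 3 lower. Genes of mitosis (3 higher and 1 lower of 12) and of DNA replication (3 higher and 4 lower of 17) were called at shares near the 39.2% of all genes tested. Of 11 heat shock genes 4 were lower and none was higher, with a median of -0.07.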
